A study of Mus musculus with 5 samples.

Results

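The genes described here are 10 transcription factors and cofactors that direct blood cells toward the myeloid, erythroid, megakaryocyte or lymphoid lineages: Spi1, Cebpa, Cebpb, Cebpe, Gfi1, Irf8, Gata1, Klf1, Zfpm1 and Ikzf1. They were taken by name from a list of known lineage factors, and the rule has no threshold on a measured value. All 10 were present among the 24046 genes of the deposited table, and all 10 were among the 13661 genes tested.

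The effect of deleting Syncrip, which encodes an RNA-binding protein, on hematopoietic stem cells (HSCs) was examined by bulk RNA sequencing of mouse bone marrow cells, with 3 libraries for WT, numbered 1 to 3, and 2 for KO, numbered 2 and 3. WT donors were Syncrip flox/flox and Mx1 Cre-, and KO donors were Syncrip flox/flox and Mx1 Cre+. Their whole marrow was transplanted into lethally irradiated CD45.1 congenic mice, all recipients were treated with pIpC, and cells were collected at 9 weeks post transplant and 3 weeks post pIpC. The gate was CD45.2+ (donor), Lin-, Sca1+, cKit+, CD150+ and CD48-, and libraries were made from total RNA with the SMART-Seq v4 low-input kit. By the study's methods, donors and recipients were young adults and recipients were female. Both groups thus carried floxed alleles and received pIpC, an interferon inducer, while only KO carried Cre, so that effects of Cre and of Syncrip loss cannot be told apart. The Mx1 promoter answers to interferon and is not restricted to HSCs. The study states in general that its experiments had independent biological replicates, but the labels do not tie these libraries to separate mice. Unless they were separate, p-values measure only the spread between these libraries.

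PU.1 (encoded by Spi1) and the C/EBP proteins are DNA-binding activators of granulocyte and monocyte genes, and GFI1 and IRF8 pull the same progenitors toward neutrophils or toward monocytes and dendritic cells. GATA1, with its cofactor FOG1 (encoded by Zfpm1), activates erythroid and megakaryocyte genes, and KLF1 activates erythroid genes. GATA1 and PU.1 bind and inhibit each other. Ikaros (encoded by Ikzf1) opens the lymphoid program and recruits chromatin remodeling complexes.

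Values are normalized read counts, that is reads divided by a size factor of the library, unless another scale is named. Depth was 21748781 to 22779536 reads in WT, 18308876 for KO 2 and 12539599 for KO 3, with each KO library below the WT range. Syncrip itself stood at 1944, 1440 and 1794 in the WT libraries (in the order 1, 2, 3, as throughout) and at 294 (KO 2) and 343 (KO 3), giving a log2 fold change of -2.43 with an SE of 0.22 (limma adjusted p = 0.0352). KO 3 stood apart from the others, with correlations of log2 values to WT of 0.882 to 0.912 against 0.950 to 0.958 among WT libraries.

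The cell type on the label was checked against marker genes. Kit was abundant, at rank 190 of all genes by WT mean, but the gate marker Slamf1 (CD150) was at rank 8461 and the HSC marker Procr at rank 8653. By WT mean, the gene with the highest normalized value was Ngp, a granule protein of maturing neutrophils, and the next was Mpo, the myeloperoxidase of granulocyte progenitors, which was above Ngp in WT 2 and both KO libraries. The 8 neutrophil markers took 4.43%, 4.18% and 5.06% of WT reads, 3.02% of those of KO 2 and 1.17% of those of KO 3. Neutrophil transcripts were therefore prominent in all 5 libraries labelled HSC and their summed share was lower in both KO libraries than in any WT library. Of the 8 markers 6 had this pattern, while S100a8 and S100a9 overlapped between the groups. In bulk RNA, fewer cells of a type and less RNA per cell cannot be told apart. The 6 monocyte markers took 0.458% to 0.629% in WT, 0.369% in KO 2 and 0.148% in KO 3, and all 6 were lower in both KO libraries than in every WT library. The summed share of 11 genes of the HSC gate, of which Kit was the most abundant and which include the negative marker Cd48, overlapped between the groups (0.0744% to 0.125% in WT, 0.0826% in KO 2 and 0.128% in KO 3), as did that of 7 erythroid markers (0.0272% to 0.0382%, 0.0474% and 0.0153%). Cd48 itself was 696, 601 and 768 in WT, 459 in KO 2 and 191 in KO 3, below WT in both. The 6 megakaryocyte markers took 0.0206% to 0.0363% in WT, 0.0381% in KO 2 and 0.0841% in KO 3, and B cell and T cell markers took at most 0.00339% and 0.00183% in any library. A list of 6 stroma markers reached 0.00908% in WT 2 and at most 0.0011% elsewhere. KO 2 stood out in adipocyte transcripts: 10 of 10 markers were highest there and together took 0.138% of reads, against 0.00132% to 0.00332% in WT and 0.000821% in KO 3, where 7 of the 10 were at 3 reads or fewer.

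**Figure D1:**
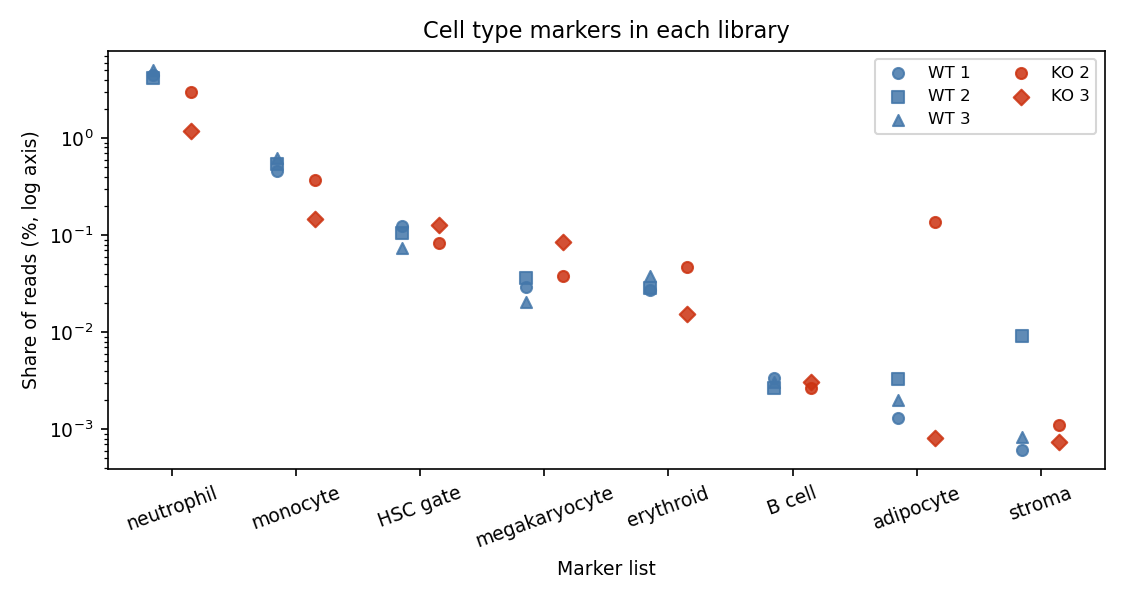
Share of reads (%, log axis) taken by 8 of the marker lists (T cell left out), with 1 point for each of the 3 WT and 2 KO libraries. Neutrophil and monocyte shares lie lowest in KO 3 and second lowest in KO 2, and the adipocyte share stands out in KO 2 at 0.138%.

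The sequences just before the starts of Zfpm1, Cebpb, Klf1 and Gata1 are shown because Zfpm1 and Cebpb lay furthest above WT among the 10 genes, Klf1 was higher with both KO values above WT, and Gata1, the DNA-binding partner of FOG1, had overlapping groups. RefSeq entries for GRCm38.p6 were matched by symbol for 8 of the 10 genes, with 11 starts, while Spi1 and Cebpe had no entry. Each line ends at the base before the RefSeq start, except that of Klf1, which ends before the first annotated exon base of GENCODE M21. Capitals mark the GATA core GATAA, the KLF1 core CACCC and the PU.1 core GAGGAA, on either strand, while the C/EBP letters TTGCNNAA had no match in these lines. The Zfpm1 line is chr8:122282021-122282140 and the Cebpb line chr2:167688795-167688914, both on the plus strand, as is that of Klf1, chr8:84901862-84901927. The Gata1 line is chrX:7967911-7968030 on the minus strand.
Zfpm1: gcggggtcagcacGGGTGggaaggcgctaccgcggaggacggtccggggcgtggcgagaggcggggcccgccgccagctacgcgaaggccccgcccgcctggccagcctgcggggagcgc
Cebpb: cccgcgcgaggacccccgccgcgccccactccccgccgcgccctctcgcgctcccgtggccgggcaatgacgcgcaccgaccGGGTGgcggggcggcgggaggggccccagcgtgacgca
Klf1: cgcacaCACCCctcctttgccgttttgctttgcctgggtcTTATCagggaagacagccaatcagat
Gata1: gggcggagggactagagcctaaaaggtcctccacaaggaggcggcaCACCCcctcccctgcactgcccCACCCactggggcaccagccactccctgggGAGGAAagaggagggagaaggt

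Over the 250 bases before each start, Zfpm1 was 73.2% G or C and Cebpb 81.6%, against 49.2% for Klf1, 54% for Gata1 and a median of 52.4% over 32817 such windows. Ikzf1, which was lower in both KO libraries, had windows at 82% and 47.6%. Irf8 had windows at 67.2% and 54%, Gfi1 at 57.6% and 59.2%, and Cebpa was at 66.4%. Zfpm1 held 3 CACCC matches, Cebpb 2, Gata1 2 and Klf1 1. CACCC, on either strand, was in 52% of all windows, so that its presence is common. Klf1 held the single GATAA match among the 11 windows, at 80 bases before its start, and 22.6% of all windows held one. Gata1 held the single GAGGAA match (23.3% of all windows), and TTGCNNAA (9.57% of all windows) was found only in 1 of the 2 Gfi1 windows. These are matches of letters and not measured binding sites. None of the 4 motifs contains another.

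Across the 10 genes, Zfpm1 showed the largest difference between the groups, and the myeloid factors Cebpb, Cebpa and Spi1 and the erythroid factor Klf1 were also higher in both KO libraries than in every WT library. Ikzf1 was lower in both, while Cebpe, Gfi1, Irf8 and Gata1 overlapped between the groups. None of the 10 passed a limma adjusted p under 0.05, a threshold that 1 of 13661 genes (0.00732%) passed, namely Syncrip. At an unadjusted limma p under 0.05, 5 of the 10 passed (Spi1, Cebpb, Klf1, Zfpm1 and Ikzf1) against 27.8% of all tested genes, namely 3799. With edgeR's quasi-likelihood test, 0 of the 10 passed at an adjusted p under 0.05, against 2 genes (0.0146%) of all, and 5 of the 10 unadjusted, against 27.2%. DESeq2, the tool the study used, passed 2 of the 10 as higher in KO (Cebpb and Zfpm1) against 9.27% of the 12170 genes it tested, and 0 as lower against 9.46%.

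Groups that did not overlap were common in these data. Both KO values lay above all WT values for 5 of the 10 genes, against 23.9% of all tested genes, and below all WT values for 1 of the 10, against 23.2%. The median log2 fold change was 0.26 over the 10 genes, with 6 above 0 and 4 below, beside 0.02 over all tested genes. With the length and GC trend removed, as described further on, it turned to -0.35, with 1 above 0 and 9 below. Taken singly, KO 2 gave a median of 0.32 over the 10 genes and KO 3 gave 0.24.

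**Figure D2:**
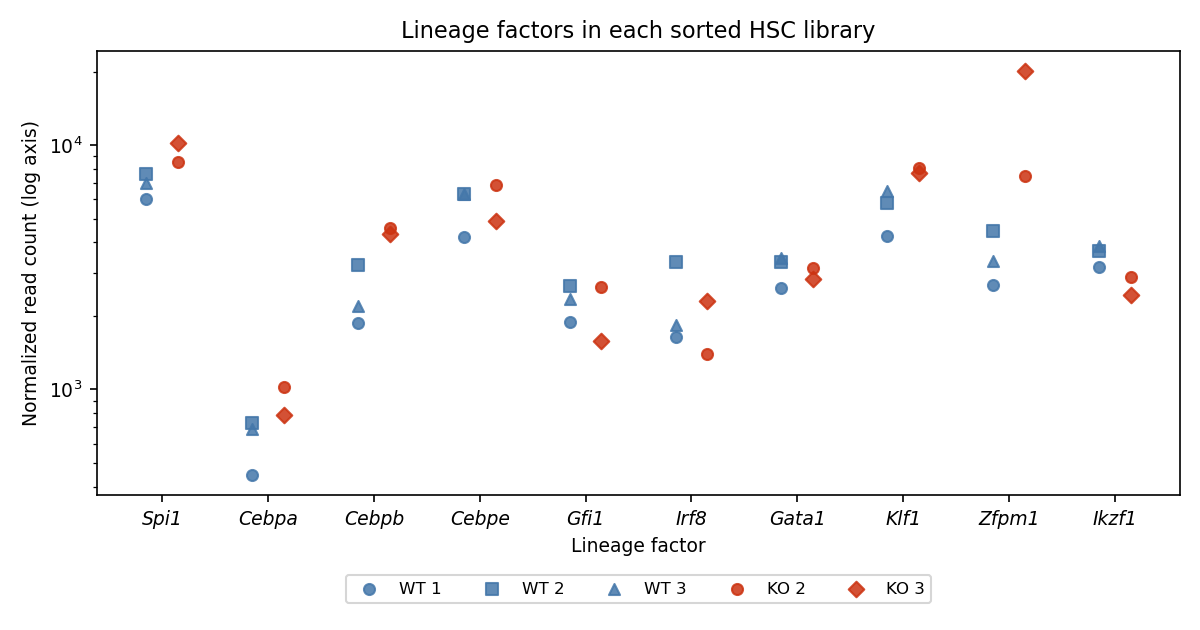
Normalized read counts (log axis) of the 10 lineage factors, with 1 point for each of the 3 WT and 2 KO libraries. Zfpm1 shows the widest gap, with KO 3 at 20105 and the highest WT value at 4468, while the points of Gata1, Gfi1, Irf8 and Cebpe intermix.

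Spi1 encodes PU.1, required for the myeloid lineage. It lies on chromosome 2 (91082390 to 91115756, plus strand; coordinates here and for the other genes are from GENCODE M21, GRCm38). Reads after normalization came to 6011, 7612 and 6966 for the WT libraries, to 8541 for KO 2 and to 10184 for KO 3. Both KO values lay above the WT range, by a modest margin in KO 2. The mean was 6863 ± 805 (SD, n = 3) in WT and 9363 ± 1162 (SD, n = 2) in KO, a ratio of 1.36. The log2 fold change of 0.45 (SE 0.18) did not pass the threshold (limma adjusted p = 0.155).

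Cebpa encodes C/EBPα, which takes multipotent cells into the granulocyte and monocyte lineage (chromosome 7, 35119293 to 35121928, plus strand). WT libraries had 445, 726 and 686, while KO 2 had 1024 and KO 3 had 788. KO 3 was close to the WT range and KO 2 further above it. This gave a log2 fold change of 0.57 ± 0.28 (SE), with a limma adjusted p of 0.214. C/EBPα is also a factor of adipocytes, whose markers were highest in KO 2, and their part in this value was not tested. With KO 3 as the only KO library, the log2 fold change was 0.38 (limma adjusted p = 0.402).

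Cebpb encodes C/EBPβ, the factor that supports granulocyte production under infection and cytokine stimulation. It is a gene of 1504 bases on chromosome 2 (167688915 to 167690418, plus strand). WT libraries had 1874, 3239 and 2204, while KO 2 had 4576 and KO 3 had 4316. The KO values nearly coincided and both exceeded the highest WT value. The mean was 2439 ± 712 (SD, n = 3) in WT and 4446 ± 184 (SD, n = 2) in KO, a ratio of 1.82, for a log2 fold change of 0.90 ± 0.24 (SE) and a limma adjusted p of 0.0853. DESeq2 on the recovered reads gave 0.87 (SE 0.27, adjusted p = 0.0152), within a range of adjusted p over all alternatives of 0.0152 to 0.596. With the length and GC trend removed, the direction turned (-0.34, limma adjusted p = 0.482). C/EBPβ is also an adipocyte factor, and adipocyte markers took 0.138% of reads in KO 2 and 0.000821% in KO 3. Without KO 2 the Cebpb log2 fold change was 0.86, and the part of adipocyte RNA in the Cebpb values was not tested. Cebpb overlaps Tmem189 on the opposite strand, and since the use of strand in counting is not given, their reads cannot be told apart. Tmem189 was 1040, 1246 and 1144 in WT and 1354 and 1936 in KO 2 and KO 3, also above WT in both.

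Cebpe encodes C/EBPε, which drives the later steps of granulocyte maturation and the secondary granule genes (chromosome 14, 54710360 to 54712174, minus strand). WT libraries had 4191, 6307 and 6292, while KO 2 had 6873 and KO 3 had 4883. KO 2 lay above every WT library and KO 3 within their range. On the log2 scale the difference was 0.075 ± 0.24 (SE), with a limma adjusted p of 0.858. The neutrophil markers among its known target genes, such as Ltf, Camp and Ngp, are those whose summed share was lower in KO.

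Gfi1 encodes a zinc finger repressor needed for neutrophil differentiation (chromosome 5, 107716657 to 107726036, minus strand). Its WT values of 1884, 2656 and 2336 bracketed that of KO 2 (2617), while KO 3 was lowest at 1575. On the log2 scale KO minus WT was -0.16 ± 0.26 (SE), with a limma adjusted p of 0.704.

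Irf8 encodes the interferon regulatory factor of monocytes and dendritic cells (chromosome 8, 120736358 to 120756694, plus strand). WT libraries had 1637, 3326 and 1833, while KO 2 had 1389 and KO 3 had 2295. Its highest WT value was 2.03 times its lowest, the widest WT spread of the 10 genes, and KO 3 was within it. Its fitted difference on the log2 scale was -0.27 ± 0.34 (SE), with a limma adjusted p of 0.62. A same-strand read-through model, Gm20388, overlaps both Irf8 and Zfpm1 in the annotation, was not in the table used here, and leaves reads of either gene uncertain to that extent.

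Gata1 encodes the zinc finger factor required for red cells and platelets (chromosome X, 7959260 to 7978071, minus strand). WT libraries had 2590, 3311 and 3442, and the KO values of 3134 (KO 2) and 2819 (KO 3) were inside that range. Its log2 fold change of -0.056 ± 0.19 (SE), with a limma adjusted p of 0.864, was the smallest in size among the 10 genes.

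Klf1 encodes the factor that activates adult globin and most other red cell genes (chromosome 8, 84901928 to 84905291, plus strand). WT libraries had 4231, 5800 and 6500, while KO 2 had 8090 and KO 3 had 7671. The KO values lay close together, above the highest WT value. The mean was 5510 ± 1162 (SD, n = 3) in WT and 7880 ± 296 (SD, n = 2) in KO, a ratio of 1.43, with a log2 fold change of 0.54 ± 0.21 (SE) and a limma adjusted p of 0.147.

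Zfpm1 encodes FOG1, the cofactor through which GATA1 acts in erythroid and megakaryocyte cells. The gene spans 122282141 to 122337251 on chromosome 8, plus strand. WT libraries had 2666, 4468 and 3343, KO 2 had 7468 and KO 3 had 20105. Both KO values exceeded every WT value, but they also differed from each other, KO 3 being 2.69 times KO 2. KO 2 was 2.14 times and KO 3 5.76 times the WT mean of 3492 ± 910 (SD, n = 3), and the KO mean was 13786 ± 8935 (SD, n = 2). By limma the log2 fold change reached 1.84 ± 0.39 (SE), with an adjusted p of 0.0815. It was 1.98 (SE 0.39, adjusted p = 6.5e-05) with DESeq2, and adjusted p over all alternatives ran from 6.5e-05 to 0.512. Without KO 2 the log2 fold change was 2.56 (limma adjusted p = 0.00199), and without KO 3 it was 1.13 (limma adjusted p = 0.167), so that KO 3 decides its size. In each of these fits the lone KO library is assumed to vary like the WT libraries. The summed megakaryocyte markers, at 0.0381% of reads in KO 2 and 0.0841% in KO 3, were above every WT library, in KO 2 by little (WT 2 was at 0.0363%), and 3 of the 6 markers were above WT in both KO libraries. Summed neutrophil markers were below WT in both. Their part in the Zfpm1 values was not tested.

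Ikzf1 encodes Ikaros, required for lymphoid development (chromosome 11, 11685003 to 11772926, plus strand). WT libraries had 3154, 3674 and 3848, while KO 2 had 2877 and KO 3 had 2427. Both KO values lay below the WT range, which made Ikzf1 the single gene of the 10 with that pattern. The mean was 3559 ± 361 (SD, n = 3) in WT and 2652 ± 318 (SD, n = 2) in KO, a ratio of 0.745, for a log2 fold change of -0.42 ± 0.18 (SE) and a limma adjusted p of 0.169.

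The base composition of these genes was examined next, because the fold change of all genes followed it. In 10 bins of transcript GC content, holding the 13015 tested genes (95.3%) with a value, the median log2 fold change went from -0.76 in the bin lowest in GC to 0.73 in the highest. The trend was present in both KO libraries, with medians in the highest bin of 0.47 in KO 2 and 1.01 in KO 3. The lineage factors were rich in GC: 9 of the 10 lay above the median of all tested genes (49.9%), with a median of 60% and a range from 46.9% (Ikzf1) to 67.2% (Cebpb). Spi1, Cebpa, Cebpb, Cebpe, Klf1 and Zfpm1 were in the highest bin. The 5 genes that were higher in both KO libraries were all among those 6, and Ikzf1, the gene lower in both, was the lowest in GC. Only Zfpm1 and Cebpb had fold changes above the median of their own bin, by 1.11 and 0.18. Zfpm1 (66.8%) and Cebpb lie at the high end of that bin, and among the 78 tested genes of at least 65% GC, a limit set after seeing the values, the median log2 fold change was 1.12 (middle 50% from 0.84 to 1.58). Zfpm1 was above that range, and Cebpb was below its median.

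**Figure D3:**
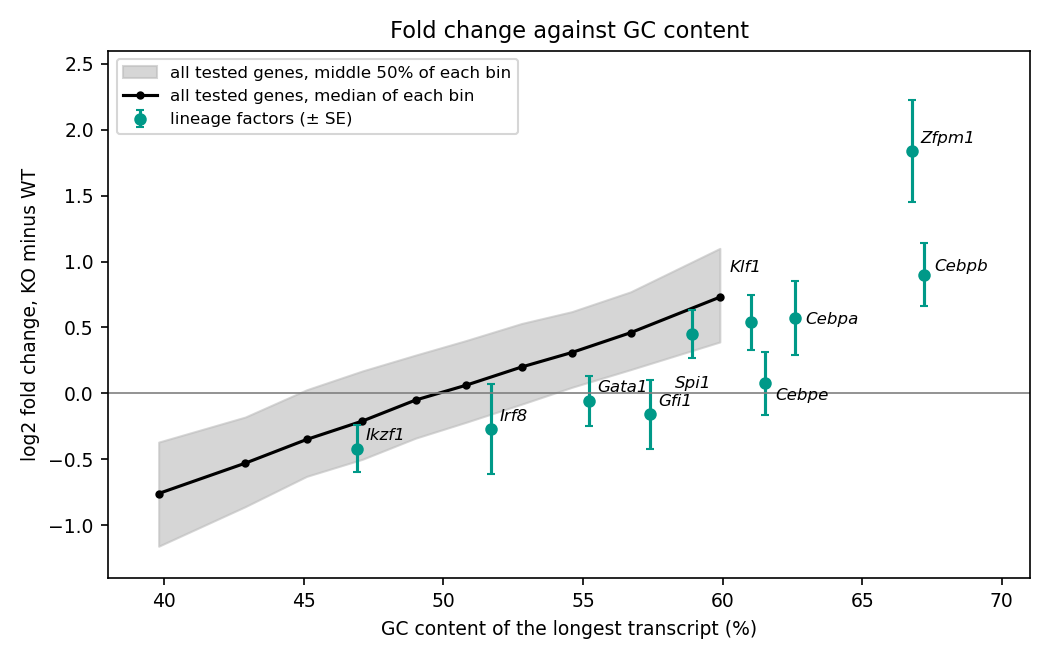
Log2 fold change (KO minus WT, ± SE) of the 10 lineage factors against the GC content of their longest transcript (%), over the median and middle 50% of all tested genes in 10 bins (black line and grey band, drawn at each bin's median GC). The line climbs from -0.76 to 0.73, and Zfpm1 stands furthest above it.

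With a linear trend on GC content and log2 transcript length removed from each library, the log2 fold changes of 5 genes changed sign: Spi1 (-0.21), Cebpa (-0.37), Cebpb (-0.34), Cebpe (-0.75) and Klf1 (-0.26). Zfpm1 kept its direction at 0.59 (SE 0.21, limma adjusted p = 0.224) and was then the only gene of the 10 above 0, while Ikzf1 was at -0.25. On this corrected log2 scale Zfpm1 had WT values of 11.69, 11.83 and 12.03 and KO values of 12.14 (KO 2) and 12.75 (KO 3). Both KO values of Zfpm1 stayed above WT, though KO 2 by a small margin. Both KO values lay above WT for 1 of the 10 genes (15.9% of all genes on that scale) and below WT for 2, Spi1 and Gata1 (18.8% of all genes). No gene of the table was called on this scale, with 2140 at an unadjusted limma p under 0.05, and Syncrip was at -1.55 (limma adjusted p = 0.0983). What gave rise to the GC trend was not tested.

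**Figure D4:**
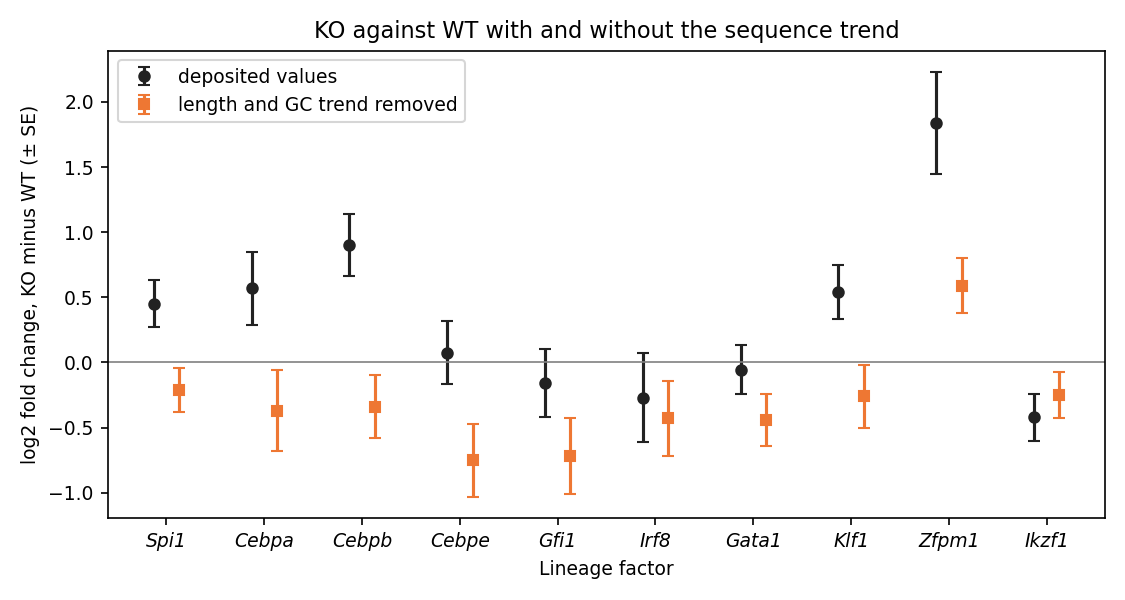
Log2 fold change (KO minus WT, ± SE) of each lineage factor from the deposited values (black circles) and after removal of the length and GC trend (orange squares). Zfpm1 remains above 0 on both scales (1.84 and 0.59), while Spi1, Cebpa, Cebpb, Cebpe and Klf1 cross 0.

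Levels were compared between genes per kilobase of exon. In WT, Cebpe was highest (mean 4510 normalized reads per kilobase), followed by Klf1 (3601), Spi1 (2547), Cebpb (1622), Gata1 (1277), Zfpm1 (997), Gfi1 (719), Ikzf1 (616), Irf8 (321) and Cebpa (235). The WT ranges of neighbours in this order overlapped except between Spi1 and Cebpb and between Ikzf1 and Irf8. For Irf8 the merged exons span 7055 bases and the longest transcript 3469, so its level and its gap to Ikzf1 depend on the length used. A granulocyte maturation factor and an erythroid factor thus led the order in libraries labelled HSC, in which the neutrophil markers took 4.18% to 5.06% of WT reads and the erythroid markers at most 0.0382%. The part of such cells in these levels was not tested. The order was nearly the same in KO 2. Zfpm1 was at rank 6 in each WT library, at rank 5 in KO 2 (2132 per kilobase) and at rank 1 in KO 3 (5739 per kilobase).

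Ratios between factors that oppose or precede each other were taken within each library, where the size factor cancels. The log2 ratio of Zfpm1 to Gata1, the cofactor to its partner, was 0.042, 0.43 and -0.042 in WT, 1.25 for KO 2 and 2.83 for KO 3. The transcripts were thus at similar read counts in WT and apart in both KO libraries. That of Klf1 to Gata1 was 0.71, 0.81 and 0.92 in WT and 1.37 and 1.44 in KO, with both KO values above WT. The log2 ratio of Gata1 to Spi1, the opposed erythroid and myeloid factors, was -1.21, -1.20 and -1.02 in WT and -1.45 and -1.85 in KO. It was lower in both KO libraries, a mean difference of -0.51. In all 3 of these ratios the side that was relatively higher in KO was the one richer in GC (66.8% for Zfpm1, 61% for Klf1 and 58.9% for Spi1, against 55.2% for Gata1).

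Among myeloid factors of like GC content, Cebpe (61.5%) to Cebpa (62.6%) gave log2 ratios of 3.23, 3.12 and 3.20 in WT, 2.75 in KO 2 and 2.63 in KO 3. The WT values spanned a narrow range and both KO values lay below it, with a mean of 3.18 ± 0.058 (SD, n = 3) in WT and 2.69 ± 0.082 (SD, n = 2) in KO. The difference of -0.49 was a description and was not tested. For Cebpa to Cebpb the log2 ratio was -2.07, -2.16 and -1.68 in WT and -2.16 and -2.45 in KO, so that KO 2 equalled WT 2 to this precision. Gfi1 to Irf8, the neutrophil to the monocyte factor, was 0.20, -0.32 and 0.35 in WT, 0.91 in KO 2 and -0.54 in KO 3. The KO libraries lay on opposite sides of all WT libraries. Ikzf1 to Spi1 was -0.93, -1.05 and -0.86 in WT and -1.57 and -2.07 in KO, lower in both, with Spi1 the richer in GC by 58.9% to 46.9%.

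For each factor, the gene with the most similar profile over the 5 libraries was taken from 35 other lineage factors, as the smallest Euclidean distance of centred log2 values. Cebpd, another C/EBP family member, was nearest to Klf1 (0.203), Spi1 (0.216) and Cebpa (0.396). Its values were 2777, 3767 and 3801 in WT and 4497 and 4713 in KO, above WT in both. Klf3 was nearest to Gata1 (0.207) and Cebpe (0.426), Sox6 to Ikzf1 (0.224), Lyl1 to Cebpb (0.472), Myb to Gfi1 (0.613) and Zeb2 to Irf8 (0.644). For Zfpm1 the nearest of these 35 candidates was Zbtb7a, at 1.06, a larger distance than for any other factor described. Its median distance was also larger, at 2.03, beside 1.2 for Gfi1 and 1.17 for Irf8. This measure grows with the size of a change, and genes outside the 35 candidates, such as Vwf, were not compared. Zbtb7a was 2397, 3169 and 2825 in WT, 4280 for KO 2 and 7294 for KO 3, so it shared the order of libraries but not the size. All values share the same 5 libraries and their depth and base composition, so these distances are descriptions.

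The other genes of these pathways were then described by list, and no list member passed the limma threshold. Genes are named as highest or lowest in a list only among those with a mean value of at least 50 over the 5 libraries. Among 14 other myeloid factors tested, both KO values lay above WT for 1 (Cebpd) and below for 1, beside 23.9% and 23.2% of all tested genes. DESeq2 passed none, beside 9.27% of all genes as higher and 9.46% as lower, and the median log2 fold change was 0.023 beside 0.02 for all genes. The lowest of these factors were Nfil3 (-0.78) and Trib2 (-0.65), and the highest after Cebpd (0.43) was Cebpg (0.21). For this list the median was -0.20 in KO 2 and 0.18 in KO 3, and -0.37 with the GC trend removed.

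Among 14 other erythroid and megakaryocyte factors, both KO values lay above WT for 8 and below for 2, beside 23.9% and 23.2% of all tested genes. The median log2 fold change was 0.52 (0.23 in KO 2 and 0.85 in KO 3), and 0.36 with the GC trend removed. DESeq2 passed 5 as higher (Nfe2, Lyl1, Ldb1, Zbtb7a and Gata2) and none as lower, beside 9.27% and 9.46% of all genes it tested. Gata2, the GATA factor of stem and early progenitor cells, was 4973, 4261 and 2269 in WT, 5333 in KO 2 and 14815 in KO 3. KO 2 was just above WT 1 while KO 3 was far above, with a log2 fold change of 1.29 (SE 0.45, limma adjusted p = 0.118). Zbtb7a, a repressor in red cells, was at 1.01 (SE 0.25, limma adjusted p = 0.0818). With the GC trend removed, Gata2 was at 0.66 and Zbtb7a at 0.42. The lowest were Sox6 (-0.47) and Myb (-0.14), both with KO values below WT. Once the GC trend was removed, Sox6 was at -0.25 and Myb at 0.045.

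Among 12 other lymphoid factors tested, the median log2 fold change was 0.32 (0.53 with the GC trend removed). Both KO values lay above WT for 2 and below for 2, beside 23.9% and 23.2% of all tested genes. DESeq2 passed Tcf3, which encodes the E2A proteins, as higher, beside 9.27% of all genes. Sox4 was 2818, 2829 and 1566 in WT, 2852 in KO 2 and 14818 in KO 3. Its log2 fold change of 1.49 (SE 0.59, limma adjusted p = 0.151) thus rested on KO 3. Gata3, at 1.35, had overlapping groups (268, 177 and 84.8 in WT, 220 in KO 2 and 753 in KO 3). Ikzf5, a relative of Ikaros, was at -0.55 with both KO values below WT, and Tcf7 at -0.60 with overlap. Removal of the GC trend put Ikzf5 at 0.11 and Tcf7 at -0.79.

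GFI1, FOG1 and Ikaros act through corepressors, and 17 of their partners were tested. Both KO values lay above WT for 5 and below for 4, beside 23.9% and 23.2% of all tested genes. The median log2 fold change was 0.049, and -0.085 with the GC trend removed. DESeq2 passed Mta1 and Mbd3 as higher and Sin3a as lower, beside 9.27% and 9.46% of all genes. Mta1, a subunit of the NuRD remodeling complex that FOG1 binds, was 796, 1209 and 961 in WT, 2108 in KO 2 and 3979 in KO 3. Both KO values were above WT with KO 3 the higher, with a log2 fold change of 1.57 (SE 0.30, limma adjusted p = 0.0815), or 1.01 (limma adjusted p = 0.153) with the GC trend removed. Mbd3, another NuRD subunit, was at 0.72, and at -0.22 with the trend removed. Sin3a was at -0.64 and Rbbp4, a histone-binding subunit, at -0.62.

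Of 18 granulocyte and monocyte genes that PU.1 and the C/EBP factors are known to bind, both KO values lay above WT for 0 and below WT for 10, beside 23.9% and 23.2% of all tested genes. DESeq2 passed 7 as lower and none as higher, beside 9.46% and 9.27% of all genes it tested, and the median log2 fold change was -0.95 (-0.24 in KO 2 and -1.16 in KO 3, and -1.01 with the GC trend removed). Itgam, the CD11b chain, was 7074, 10792 and 11353 in WT, 5158 in KO 2 and 2313 in KO 3. Ngp was 277744, 303577 and 355453 in WT, 195888 in KO 2 and 73449 in KO 3. In both, the KO values lay below WT and KO 3 was lowest, at log2 fold changes of -1.46 (SE 0.34, limma adjusted p = 0.0815) and -1.37 (SE 0.40, limma adjusted p = 0.0904). Prtn3, a protease of immature granulocytes, was highest at 0.30, followed by Csf2ra at 0.17, and both overlapped between groups. Prtn3 and Csf2ra turned to -0.46 and -0.41 with the GC trend removed. The summed neutrophil and monocyte markers were lower in both KO libraries and lowest in KO 3, and their part in these values was not tested. In 5 of the lists named here some genes are also among the marker lists above, as Ngp and Itga2b are, so that the marker shares and these medians are not independent.

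Of 16 erythroid genes bound by GATA1 and KLF1, both KO values lay above WT for 2 and below for 5, beside 23.9% and 23.2% of all tested genes. The median log2 fold change was -0.24 (0.057 in KO 2 and -0.66 in KO 3, and -0.54 with the GC trend removed). DESeq2 passed Epor and Icam4 as higher and Car1 and Tfrc as lower, beside 9.27% and 9.46% of all genes. Epor, the erythropoietin receptor, was 2096, 2383 and 2347 in WT and 3230 and 3604 in KO, a log2 fold change of 0.59 that became -0.11 with the GC trend removed. Slc4a1, the anion exchanger of red cells, was 513, 988 and 851 in WT, 660 in KO 2 and 25.8 in KO 3. Slc4a1 thus overlapped between the groups, and its log2 fold change of -2.51 (SE 1.08, limma adjusted p = 0.174) rested on KO 3. Hba-a1 and Hba-a2 had identical values and so hold 1 measurement, though both were counted in this list and in the erythroid marker share.

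Of 11 megakaryocyte genes tested, both KO values lay above WT for 6 and below for 0, beside 23.9% and 23.2% of all tested genes. The median log2 fold change was 0.82, with 0.23 in KO 2, 1.60 in KO 3 and 0.45 with the GC trend removed, and DESeq2 passed 5 as higher (Gp1bb, Gp5, Gp9, Pf4 and Vwf), beside 9.27% of all genes it tested. Vwf, von Willebrand factor, was 1210, 1934 and 1042 in WT, 3120 in KO 2 and 7319 in KO 3. Gp5, a platelet glycoprotein, was 1288, 1692 and 1221 in WT, 1990 in KO 2 and 6400 in KO 3. In both genes, as in Zfpm1, KO 2 lay above WT and KO 3 above KO 2, with log2 fold changes of 1.83 (SE 0.38, limma adjusted p = 0.0815) and 1.36 (SE 0.42, limma adjusted p = 0.1). With the GC trend removed they were at 1.29 and 0.68. Itgb3 (0.07), an integrin chain of platelets, was the lowest at that mean value, and its groups overlapped.

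Of 12 early lymphoid genes tested, both KO values lay below WT for 1 and above for 0, beside 23.2% and 23.9% of all tested genes, and the median log2 fold change was -0.41. The gene below WT was Dntt, the terminal transferase of lymphoid progenitors, at 491, 323 and 458 in WT, 108 in KO 2 and 175 in KO 3. Dntt stood at a log2 fold change of -1.60 (SE 0.34, limma adjusted p = 0.0815) and at -1.51 with the GC trend removed, and DESeq2 passed it as lower, beside 9.46% of all genes. Blnk was at -0.50, and Vpreb1 (0.29) and Igll1 (0.11) were the highest, all 3 with overlapping groups and low values of 120 or less.

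**Figure D5:**
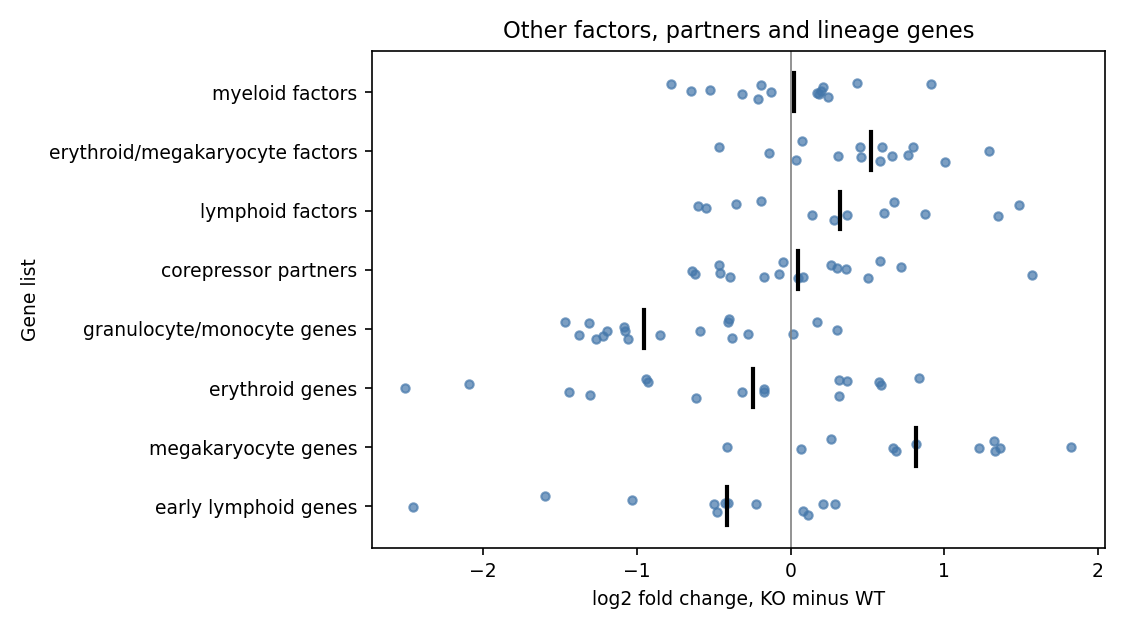
Log2 fold change (KO minus WT) of each tested gene in the 8 wider lists, with 1 point per gene and a bar at each list's median. Granulocyte and monocyte genes lie mostly below 0 (median -0.95) and megakaryocyte genes above it (median 0.82), while other myeloid factors centre near 0 (0.023).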

How the data were processed

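The authors deposited a table of normalized signal for 5 libraries, in which each value is a read count divided by the size factor of its library. Submitters' processing notes name STAR, featureCounts, DESeq2 and mm10. Versions, annotation and the strand setting are not given in the sources used here. A second deposited table, of DESeq2 fold changes and p-values, was not used.

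Every positive value was a whole multiple of 1 step per library (100% of values, tolerance 0.0001 reads), which gave back whole reads. The floor of 3 reads covers counting error only.

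Tests used limma (version 3.58.1, R 4.3.3, mean-variance trend, two-sided) on log2(value + 1) for all 5 libraries without covariates. They kept the 13661 genes that reached 10 in 2 or more libraries and adjusted p by Benjamini-Hochberg over all of them. Fold changes are on that scale and understate changes of low genes. edgeR (version 4.0.16) and DESeq2 (version 1.42.0) were run on recovered reads. GC content and length came from the longest GENCODE M21 transcript matched by symbol, and exon length from the merged exons of all annotated transcripts of that symbol.

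The 10 genes, the lists and the tests were chosen with earlier results of these data known. Text names, beside the 10, each list's 2 highest and 2 lowest fold changes among genes with a mean of at least 50, the nearest profiles, and genes that DESeq2 passed, added after their values were seen. Some list genes that this rule names are not reported here. List genes without a test were Id2, Id3 and Ahsp, which were not used here, and Egr2, Pax5, Bcl11b, Gp6 and Cd3e, which did not pass the filter. Alternatives covered pseudocount, filter, scaling, tool, library weights, the replicate number as a block, the GC trend and each library left out.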

Additional observations from a re-analysis of the deposited data

How the results depend on the processing

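The KO libraries are the shallowest of the 5. Over 17 alternatives, Zfpm1 (0.52 to 2.56) and Ikzf1 (-0.55 to -0.25) kept their direction in every one, and no other gene of the 10 did. No causes of the changes below were tested, other than what each alternative removes.

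Syncrip lost its limma call over all genes in the table (-2.43, adjusted p = 0.0503), with array weights (-2.42, adjusted p = 0.0594), once the trend on length and GC was removed (-1.55, adjusted p = 0.0983) and with that removal plus the replicate block (-1.53, adjusted p = 0.322). Leaving out 1 library gave -2.55 to -2.32, with the call lost without WT 1 (adjusted p = 0.209), WT 2 (0.164) or WT 3 (0.203).

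The number of the 10 genes called was 2 with DESeq2 and 0 to 1 when 1 library was left out, the 1 being Zfpm1 without KO 2. The count of genes called in the whole table was 2279 with DESeq2, 2 with edgeR, 2 at a pseudocount of 10, 6 with the replicate block, 3560 without KO 2, 11 without KO 3, and 0 with any 1 of the WT libraries left out, with array weights, over all genes or with the GC trend removed, against 1 as reported. The 0 counts stood beside 1409 to 3963 genes at an unadjusted p under 0.05.

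The number of genes with both KO values beyond WT was 3 with the GC trend removed and 6 to 8 with 1 library left out, against 6. It was not computed for edgeR, DESeq2, array weights or the block, which give no other values per library. The median log2 fold change of the 10 was -0.35 with the GC trend removed, -0.48 with the block as well, and 0.11 to 0.35 with 1 library left out.

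Signs changed as follows. With the GC trend removed, and then with the block as well, Spi1 went to -0.21 and -0.27, Cebpa to -0.37 and -0.52, Cebpb to -0.34 and -0.44, Cebpe to -0.75 and -0.92, and Klf1 to -0.26 and -0.41. Cebpe was also -0.005 with quantile scaling, -0.12 with the block, -0.12 without WT 1, and -0.17 (without KO 2) to 0.32 (without KO 3) with 1 library left out. Irf8 was 0.044 without WT 2, and -0.63 (without KO 3) to 0.092 (without KO 2) with 1 left out, Gata1 0.021 without WT 3 and 0.02 without KO 3, and Gfi1 -0.53 (without KO 2) to 0.21 (without KO 3).

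Replicate numbers 2 and 3 occur in both groups, but the labels do not say that a number marks a shared batch, and the deviations of same-numbered libraries correlated at r = -0.06 and -0.18. With the replicate block, 0 of the 10 genes were called and their median log2 fold change was 0.11.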
